A study of Homo sapiens with 12 samples.

Results

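The comparison of si-FGF9 with HG sets 3 libraries of HK2 cells that received an siRNA against FGF9 in 5.5 mM glucose against 3 libraries of HK2 cells in 50 mM glucose. These 6 libraries were chosen by their labels from the 12 of the series, and the NG and HG + OE-FGF9 libraries were left out. HK2 is an immortalised line of human renal proximal tubular epithelial cells, so that both groups come from 1 line. The si-FGF9 cells were transfected with lipofectamine 3000 and 1 siRNA duplex, and neither the labels nor the methods describe a non-targeting siRNA or a transfected HG group. Glucose and transfection therefore cannot be told apart in this comparison. The paper also describes its NG microenvironment as 50 mM mannitol. Whether the si-FGF9 medium held mannitol, and so whether osmolarity differed between the groups, is not settled by the sources used here. Nothing states that the 3 libraries of a group came from separate cultures, so that p-values measure the spread between libraries, which may be technical.

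FGF9 is a secreted growth factor that binds FGF receptors with heparan sulphate and signals through the ERK and AKT pathways. In the kidney it is best known for its part in maintaining nephron progenitors during development. An siRNA is a short duplex of which one strand guides Argonaute to a matching transcript, and the seed, bases 2 to 8 of the guide, can also pair with the 3′ UTRs of other transcripts. High glucose is a common model of the diabetic tubule, in which the polyol pathway, inflammatory signalling and profibrotic genes are frequently studied. Values are TPM, the relative abundance of a transcript within its library, and fold changes are on the log2(TPM + 1) scale, si-FGF9 minus HG, which understates changes of genes with low values.

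The siRNA is shown with its target because it is the agent that only the si-FGF9 libraries received. The first line is the strand as the labels print it, the second the antisense strand as DNA with the seed in capitals, and the third the FGF9 transcript around the target, with the target in capitals.
si-FGF9 strand: cuauguugcauuaaauaaatt
antisense strand: tTTATTTAatgcaacatag
FGF9 target: cgataCTATGTTGCATTAAATAAAgatgg
The target lies at chr13:21701294-21701312 on the plus strand of GRCh38 in GENCODE 29, in the coding part of exon 3 of 3. The files list FGF9 at 0 TPM in each of the 6 libraries. Neither the knockdown nor the labels could be checked on the targeted gene, and the depth behind a TPM of 0 is unknown.

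Of the 62703 genes in the files, 12557 reached 1 TPM in no fewer than 3 of the 6 libraries and entered the limma fit. A gene was called when its log2 fold change was at least 1 in either direction with an unadjusted p under 0.01. There were 1362 such genes, 10.8% of those tested, with 183 (1.46%) higher and 1179 (9.39%) lower in si-FGF9, and the Benjamini-Hochberg adjusted p of each was under 0.05. The whole distribution was shifted, with a median log2 fold change of -0.40 over all genes tested. Changes below are therefore to be read relative to -0.40 as well as to 0. After scaling by the median of ratios the same thresholds called 684 higher (5.45%) and 279 lower (2.22%), after quantile normalization 471 (3.75%) and 310 (2.47%), and after a correction for the GC content of the transcripts 441 (3.60%) and 299 (2.44%). A core of 156 higher (1.24%) and 191 lower genes (1.52%) was called in the same direction on the deposited values and after each of these 3 rescalings. Single libraries also moved the counts. Without HG replicate 1 there were 711 called genes, of which 18 had an adjusted p under 0.05, and without HG replicate 2 there were 2278. For a single value, exact permutation of 3 and 3 libraries gives a two-sided p of 0.1 at the smallest. Because these are bulk samples, less RNA per cell and fewer cells of a kind cannot be told apart.

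**Figure D1:**
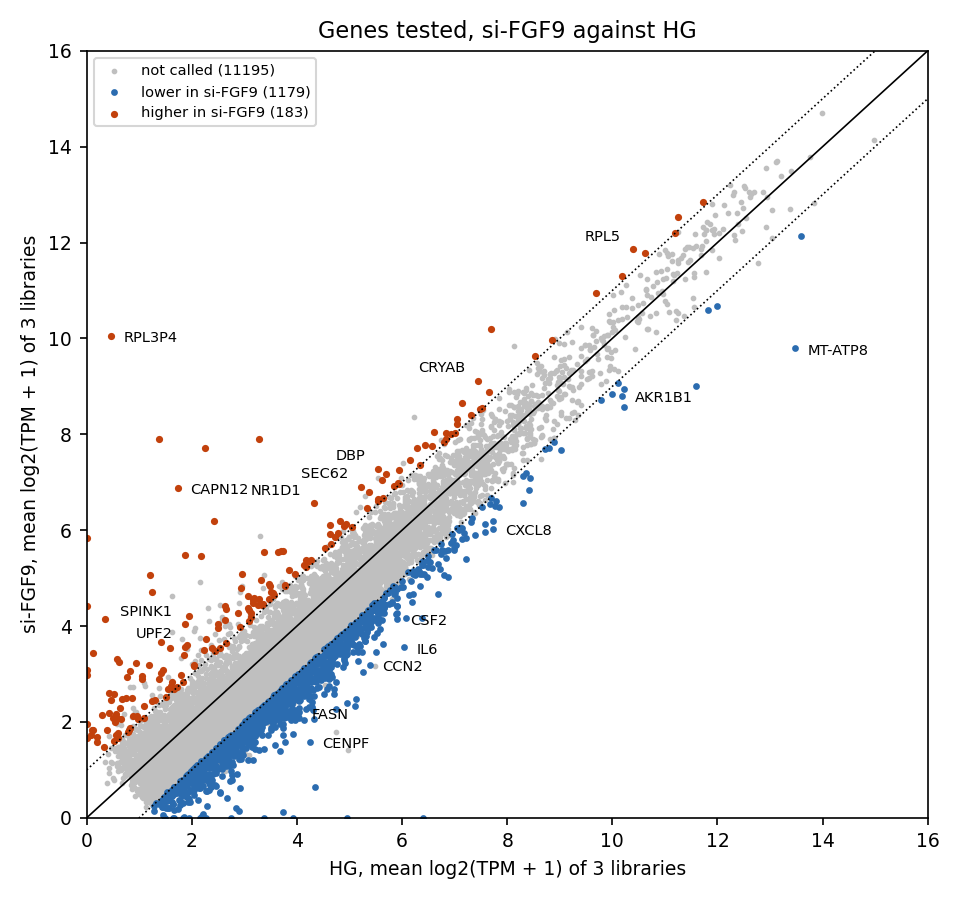
Mean log2(TPM + 1) of the 3 HG libraries (horizontal) and of the 3 si-FGF9 libraries (vertical) for each of the 12557 genes tested. The solid line marks equal values and the dotted lines a log2 fold change of 1. The 1179 genes lower in si-FGF9 form a band below the lines and the 183 higher genes are scattered above them, with RPL3P4 farthest from the line of equal values.

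The makeup of the RNA differed between the groups. Transcripts of the mitochondrial genome took up 11.3%, 13.9% and 15.6% of the TPM in HG replicates 1, 2 and 3, and 4.94%, 5.22% and 8.597% in si-FGF9. The share of cytosolic ribosomal protein messages was 25.0% to 27.8% in HG, against 33.8% to 36.8% in si-FGF9. The groups did not overlap in either share, and the exact permutation p was 0.1 for both, the smallest possible. Between 12350 and 13111 genes reached a TPM of 1 in the HG libraries and between 11549 and 12013 in si-FGF9. In a principal component analysis, the first component held 56.4% of the variance and separated the groups, with HG replicate 2 nearest to si-FGF9. The second held 29.6% and set HG replicate 3 and si-FGF9 replicates 1 and 2 apart from the other 3 libraries.

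The label of the cells was checked on markers. The epithelial keratins KRT8, KRT18 and KRT19 were above 200 TPM in every library, and the renal factor PAX8 was between 35.9 and 67.8 TPM. The proximal tubule genes LRP2, CUBN, SLC34A1 and ANPEP, which encode endocytic receptors, a phosphate transporter and a brush border peptidase, stayed at or below 0.26 TPM in all 6 libraries. The defining markers of endothelium, podocytes, distal nephron and T cells were each at or below 0.08 TPM. Of the fibroblast markers LUM, a matrix proteoglycan, had 14.1 to 38.7 TPM in HG and 9.15 to 18.1 TPM in si-FGF9, while PDGFRA, PDGFRB and DCN stayed at or below 0.70 TPM. CD68, a lysosomal protein of macrophages and other cells, had 108 to 131 TPM over the 6 libraries, and HBA1, a globin gene, had 0 to 10.3 TPM. CDH1, which encodes E-cadherin, was at or below 0.10 TPM and was not tested.

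Inflammatory mediators were lower in si-FGF9 than in HG, and this held on every scale examined. Of the 22 tested members of the inflammatory and NF-κB list, 6 were lower (27.3%, against 9.39% of all genes) and 0 higher, and the median log2 fold change was -0.71, against -0.40 over all genes. The 6 were IL6, CSF2, CXCL8, CXCL2, CXCL3 and NFKB1, and all 6 remained lower after each of the 3 rescalings. IL6, a cytokine of the acute phase response, had 101.3, 77.2 and 34.5 TPM in HG and 8.90, 10.3 and 13.5 TPM in si-FGF9. The lowest HG library was thus above the highest si-FGF9 library, and the means differed 6.51-fold. The log2 fold change was -2.48 (standard error 0.38, adjusted p = 0.013 by limma and Benjamini-Hochberg), and -2.03 after the GC correction. CSF2, which encodes the myeloid growth factor GM-CSF, had the tightest values, 58.7, 60.4 and 58.3 TPM in HG and 15.6, 20.3 and 14.8 TPM in si-FGF9. CXCL8, a neutrophil chemokine, had 226, 132 and 311 TPM in HG and 63.2, 79.2 and 53.1 TPM in si-FGF9. NFKB1, the gene of the p105 precursor of NF-κB p50, fell from 10.00 ± 2.03 (SD, n = 3) to 2.46 ± 1.17 TPM. The decrease was not shared by the whole list. The NF-κB target TNFAIP3 had a log2 fold change of -0.34 (adjusted p = 0.34, limma), and the inhibitor NFKBIA had -0.77 (adjusted p = 0.026), under the fold threshold. The number of lower members stayed between 6 and 8 when each library was left out in turn.

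The promoters of these genes carry known NF-κB sites, and the stretches that hold one are shown for the called members, chosen after their values were seen. The letters GGG, any 2 bases and TTTCC were searched on both strands of the 250 bases before the start of each gene in RefSeq windows of GRCh38.p14, and the capitals mark the match.
IL6, chr7:22727117-22727146, plus strand: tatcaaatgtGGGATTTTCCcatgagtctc
CXCL2, chr4:74099254-74099283, minus strand: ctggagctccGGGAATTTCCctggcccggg
CXCL3, chr4:74038749-74038778, minus strand: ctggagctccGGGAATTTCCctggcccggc
NFKB1, chr4:102501300-102501329, plus strand: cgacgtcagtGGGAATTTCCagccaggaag
The match begins 73, 78, 79 and 49 bases before the start in IL6, CXCL2, CXCL3 and NFKB1. CXCL8 and CSF2 held no match to these letters in this window. The letters occurred in 1.73% of all 27305 promoters in the table and in 2.02% of the 9377 promoters of tested genes. They occurred in 3.02% of the promoters of genes lower in si-FGF9, and in 9 of 17 promoters of the list, called or not. A match is a description of the sequence and does not show that a factor was bound.

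Interferon-stimulated genes were also lower, but fewer of them were called after rescaling. Of 32 members tested, 11 were lower (34.4%, against 9.39% of all genes) and 0 higher, with a median of -0.85. After the GC correction 4 were lower and the median was -0.39, against -0.05 over all genes. After median-of-ratios scaling 3 were lower, and after quantile normalization 4. The shares of all genes called lower on these 3 scales were 2.44%, 2.22% and 2.47%. IFIT1, which binds viral RNA, had 12.9 to 20.8 TPM in HG and 3.04 to 3.80 TPM in si-FGF9, without overlap (log2 fold change -1.89, adjusted p = 0.011, limma). IFIT3 and PARP9 were 3.23-fold and 4.20-fold lower, and both remained called on all scales. ISG15, a ubiquitin-like effector, had 520, 740 and 370 TPM in HG and 530, 499 and 583 TPM in si-FGF9, which overlap. The number of lower members was 7 to 13 with one library left out.

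Targets of YAP and genes of the actin cytoskeleton formed another group with lower values. Of 45 members, 11 were lower (24.4%, against 9.39% of all genes) and 0 higher, with a median of -0.68. After the GC correction 5 were lower, 1 was higher and the median was -0.45, and after median-of-ratios scaling 4 were lower, 1 was higher and the median was -0.32. Quantile normalization gave 8 lower and 1 higher. The shares of all genes called lower on these 3 scales were 2.44%, 2.22% and 2.47%. CCN2, a matricellular protein of fibrosis and a YAP target, had 57.6, 41.4 and 28.2 TPM in HG and 8.25, 6.85 and 9.53 TPM in si-FGF9. Every HG library was above every si-FGF9 library, and the means differed 5.17-fold (log2 fold change -2.19, standard error 0.28, adjusted p = 0.011, limma). AMOTL2, an angiomotin that restrains YAP and is itself a target, was 4.63-fold lower, and ANKRD1, a nuclear ankyrin repeat protein, 4.57-fold lower. The ANKRD1 values of HG ranged from 18.7 to 66.8 TPM and those of si-FGF9 from 7.89 to 9.98 TPM. FAT1, a giant protocadherin upstream of the Hippo pathway, had 47.0, 32.3 and 33.7 TPM in HG and 6.83, 6.36 and 8.80 TPM in si-FGF9. CCN1, the relative of CCN2, had a log2 fold change of -0.99 (adjusted p = 0.019, limma) and was just short of the fold threshold. MYH9, non-muscle myosin, had -0.80 and FLNA, filamin A, had -0.40, the value of the general shift. The letters GGAATG, the core bound by TEAD factors, occurred 3 times in the 250 bases before CCN2 and 2 times before ANKRD1 but not before AMOTL2, and were found in 9.25% of the promoters of tested genes, on either strand. The CCN2 stretch with the pair nearest the start is shown with 1 match in capitals, and the other is the same letters in lower case beside it.
CCN2, chr6:131951461-131951486, minus strand: aaggtggggaGGAATGcgaggaatgt

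**Figure D2:**
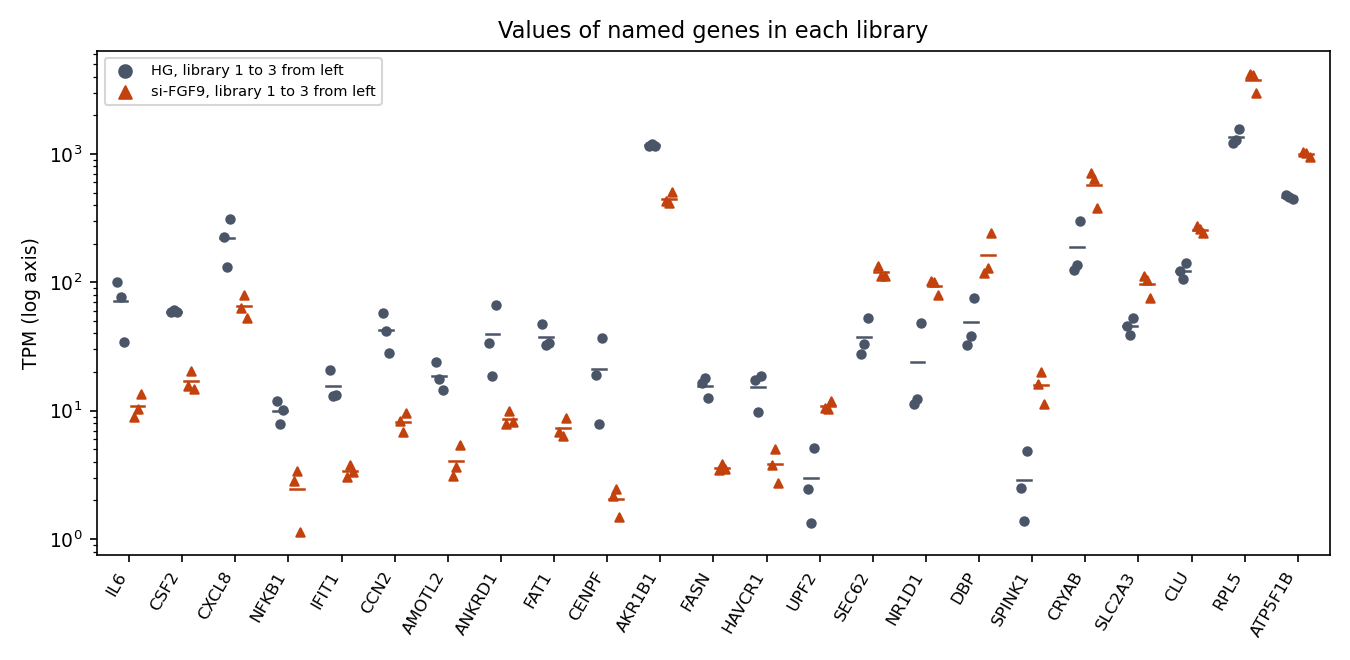
TPM on a log axis of 23 genes in each of the 6 libraries, with HG as circles, si-FGF9 as triangles and the mean of each group as a bar. The groups do not overlap for any gene shown; IL6, CCN2 and FAT1 were over 5 times higher in HG, and NR1D1 and SPINK1 over 3 times higher in si-FGF9.

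Genes of epithelial-mesenchymal transition (EMT) and matrix were called only as lower on the deposited scale, and this depended on the scaling. Of 43 members tested, 7 were lower (16.3%, against 9.39% of all genes) and 0 higher, with a median of -0.51. COL4A1, a chain of basement membrane collagen, was 2.40-fold lower. After the GC correction, CCN2 alone of the 43 was called lower, and 3 members were called higher. The shares over all genes were then 2.44% lower and 3.60% higher, so that the lower call was near the general share. TIMP1, an inhibitor of matrix metalloproteinases, had 932, 1079 and 1082 TPM in HG and 1905, 1836 and 1984 TPM in si-FGF9. The mean was 1.85-fold higher in si-FGF9 (log2 fold change 0.89, standard error 0.13, adjusted p = 0.012, limma) and stayed under the fold threshold. TGFB1, the main profibrotic cytokine of the kidney, had 97.1, 115 and 89.2 TPM in HG and 153, 148 and 163 TPM in si-FGF9, a 1.54-fold difference (log2 fold change 0.62, adjusted p = 0.032, limma). Both genes lay above the HG libraries in all 3 si-FGF9 libraries. The study set HG and si-FGF9 each against NG. By RT-qPCR it reported the genes at the centre of its EMT network as higher in both. Between si-FGF9 and HG, which is another comparison, LOX, THBS1, HIF1A and ITGB1 of these genes were not called. LOX, which crosslinks collagen, had a log2 fold change of -0.44 (adjusted p = 0.13, limma), close to the general shift. HIF1A had 78.4, 37.2 and 216.0 TPM in HG, so that its HG spread covered every si-FGF9 value but 1. Its log2 fold change of -1.17 passed the fold threshold but not the p threshold (unadjusted p = 0.074, limma). TGFB2 had -1.17 with an unadjusted p = 0.012 in limma and fell short of the p threshold. FN1, fibronectin, had -0.73 and VIM, vimentin, -0.30, with adjusted p of 0.092 and 0.13 in limma. VIM was at 0.08 after the GC correction, the other side of 0.

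Some cell cycle genes were lower in si-FGF9, and fewer were called after rescaling, as was the case over all genes. In the list of G1/S and DNA replication genes, 9 of 46 were lower (19.6%, against 9.39% of all genes), 0 higher, and the median was -0.68. In the list of G2/M and mitosis genes, 8 of 56 were lower (14.3%), 1 higher (SPC24), and the median was -0.67. After the GC correction, 3 of 46 and 3 of 56 were lower, against 2.44% of all genes. Median-of-ratios scaling gave 2 and 4 lower, against 2.22% of all genes. Quantile normalization gave 4 and 4, against 2.47%. CENPF, a kinetochore protein that peaks in G2, had 19.1, 7.93 and 36.8 TPM in HG and 2.16, 2.46 and 1.49 TPM in si-FGF9. Its HG libraries differed by more than 4 times among themselves, but the lowest was above all of si-FGF9, and the mean was 10.5-fold higher in HG. PCNA, the sliding clamp of DNA replication, had 186, 125 and 117 TPM in HG and 49.2, 57.8 and 60.3 TPM in si-FGF9. Thymidylate synthase, TYMS, was 2.47-fold lower. Other proliferation genes were not called. TOP2A had 112, 101 and 251 TPM in HG and 152, 164 and 168 TPM in si-FGF9, CDK1 had a log2 fold change of -0.36 and E2F1 of 0.07. The value of CDK1, which did not pass, was 0.21 after the GC correction. The median of the G2/M list was -0.17 after the GC correction. The count of lower G2/M genes was 21 without HG replicate 2 and 6 without HG replicate 1. Over all 12557 genes tested, the counts were 2066 and 588.

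Of 10 genes of the polyol pathway and of osmolytes, 3 were lower (AKR1B1, SGK1 and SLC38A2) and 0 higher, with a median of -0.57. That is 30% lower, against 9.39% of all genes, and 1 was lower after the GC correction. Of 21 genes of amino acid and glutamine metabolism, 3 were lower (14.3%, against 9.39% of all genes) and 0 higher, with 1 lower after the GC correction. After that correction 2.44% of all genes were lower. AKR1B1, aldose reductase, the first enzyme of the polyol pathway and a gene induced by hyperosmolarity, was among the most stable differences. It had 1156, 1189 and 1144 TPM in HG and 427, 414 and 506 TPM in si-FGF9. The HG values lay close together and 2.59-fold above si-FGF9 (log2 fold change -1.38, standard error 0.14, adjusted p = 0.0065, limma). After median-of-ratios scaling the value was -0.90, under the fold threshold. The transporters differed, with SLC38A2, an amino acid transporter, called lower (log2 fold change -1.42), SLC5A3, the myo-inositol transporter, at -0.77 (adjusted p = 0.14) and SLC6A6, the taurine transporter, at 0.56 (adjusted p = 0.26, limma for all 3). TXNIP, which is induced by glucose and restrains glucose uptake, had 483, 334 and 976 TPM in HG and 586, 656 and 522 TPM in si-FGF9. The groups overlapped, and the log2 fold change was 0.12 (standard error 0.35, adjusted p = 0.82, limma). Its relative ARRDC4 had 0.17 (adjusted p = 0.76, limma). SLC2A3, the high-affinity glucose transporter GLUT3, was higher in si-FGF9 with 113, 105 and 75.0 TPM against 45.5, 39.1 and 52.4 TPM in HG. SLC2A1, GLUT1, had -0.59 with overlapping groups.

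FASN, the synthase of palmitate, had 16.4, 18.0 and 12.6 TPM in HG and 3.47, 3.82 and 3.51 TPM in si-FGF9. Its log2 fold change of -1.85 (adjusted p = 0.0090, limma) was -1.84 after the GC correction, while the other 28 genes of cholesterol and fatty acid synthesis were not called. Lactate dehydrogenase A, LDHA, was 2.59-fold lower in si-FGF9, with HG values from 786 to 1823 TPM. PGK1, a kinase of glycolysis, overlapped between the groups, with 875, 848 and 264 TPM in HG and 279, 303 and 404 TPM in si-FGF9. PDK1, which restrains pyruvate oxidation, had 5.69 to 10.7 TPM in HG and 3.09 to 5.20 TPM in si-FGF9, without overlap, and did not pass. Of 41 glycolysis and hypoxia targets, 3 were lower (LDHA, PFKFB3 and KDM3A), which is 7.32% against 9.39% of all genes. In 12 of the 41, all si-FGF9 libraries were below all HG libraries, against 35.5% of all genes tested, so that this was no trait of the list. The count of lower genes was 0 of 41 without HG replicate 1, against 588 of all 12557 genes tested. Without HG replicate 3 it was 12 of 41, against 1382 of all 12557, so that the count depended on that library.

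Markers of tubular injury split. HAVCR1, which encodes the injury marker KIM-1, had 17.3, 9.68 and 18.7 TPM in HG and 3.79, 5.05 and 2.75 TPM in si-FGF9, a 3.95-fold decrease that held on all scales. VCAM1, an adhesion molecule of injured tubules, was 3.47-fold lower as deposited but under the fold threshold after each of the 3 rescalings. CLU, the secreted chaperone clusterin, was higher in si-FGF9, with 273, 258 and 240.2 TPM against 121, 105 and 140.2 TPM. LCN2, the gene of the injury marker NGAL, had a log2 fold change of 0.39 and overlapping groups (adjusted p = 0.23, limma). SPINK1, a secreted inhibitor of trypsin, was among the genes that rose most, with 2.49, 1.38 and 4.84 TPM in HG and 16.3, 20.1 and 11.3 TPM in si-FGF9, a 5.48-fold increase.

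FGF signalling genes gave no call. Of 15 FGF ligands, receptors and adaptors tested, 0 passed in either direction, and the median of -0.44 was close to that of all genes. FGFR1 had 8.17, 6.59 and 8.47 TPM in HG and 4.06, 4.17 and 4.15 TPM in si-FGF9 (log2 fold change -0.76, adjusted p = 0.041, limma), a difference without overlap but under the fold threshold. FGFR3, a receptor with high affinity for FGF9, had 4.73, 4.57 and 4.81 TPM in HG and 4.47, 4.96 and 4.91 TPM in si-FGF9 (log2 fold change 0.02, standard error 0.20). The closest relatives of FGF9, FGF16 and FGF20, stayed at or below 0.02 TPM. Of 15 feedback genes and outputs of ERK, EPHA2 and SPRY1 were lower (13.3%, against 9.39% of all genes). DUSP6, the ERK phosphatase, had -0.55 (adjusted p = 0.19, limma), with SPRY2 at -0.96 (adjusted p = 0.086), ETV4 at 0.54 (adjusted p = 0.12) and ETV5 at -0.03 (adjusted p = 0.96). Direction thus differed among the outputs, and SPRY1 was below 2.3 TPM in every library.

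Several genes of the mitochondrial genome were lower in si-FGF9. Of 15 tested, 6 were lower (40%, against 9.39% of all genes), 0 higher, and the median was -1.01. The count was 3 after the GC correction, 2 after median-of-ratios scaling and 8 after quantile normalization, with medians of -0.54, -0.53 and -1.16. The shares of all genes called lower on these 3 scales were 2.44%, 2.22% and 2.47%. MT-ND5, a subunit of complex I, had 989, 1219 and 1403 TPM in HG and 302, 323 and 548 TPM in si-FGF9 (log2 fold change -1.66, adjusted p = 0.013, limma). MT-CYB, MT-ND2 and MT-CO1 were the other called genes of single reading frames. MT-ATP8 had the largest decrease of any protein-coding gene named by the rule, from 9309, 7750 and 20837 TPM to 556, 852 and 1473 TPM. MT-ATP8 and MT-ND4L share bases and a transcript with MT-ATP6 and MT-ND4, and the division of reads among them is uncertain. MT-ATP6 had a log2 fold change of -0.67, and MT-RNR1, a ribosomal RNA, of 0.23. The number of lower genes was 4 to 10 with one library left out.

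**Figure D3:**
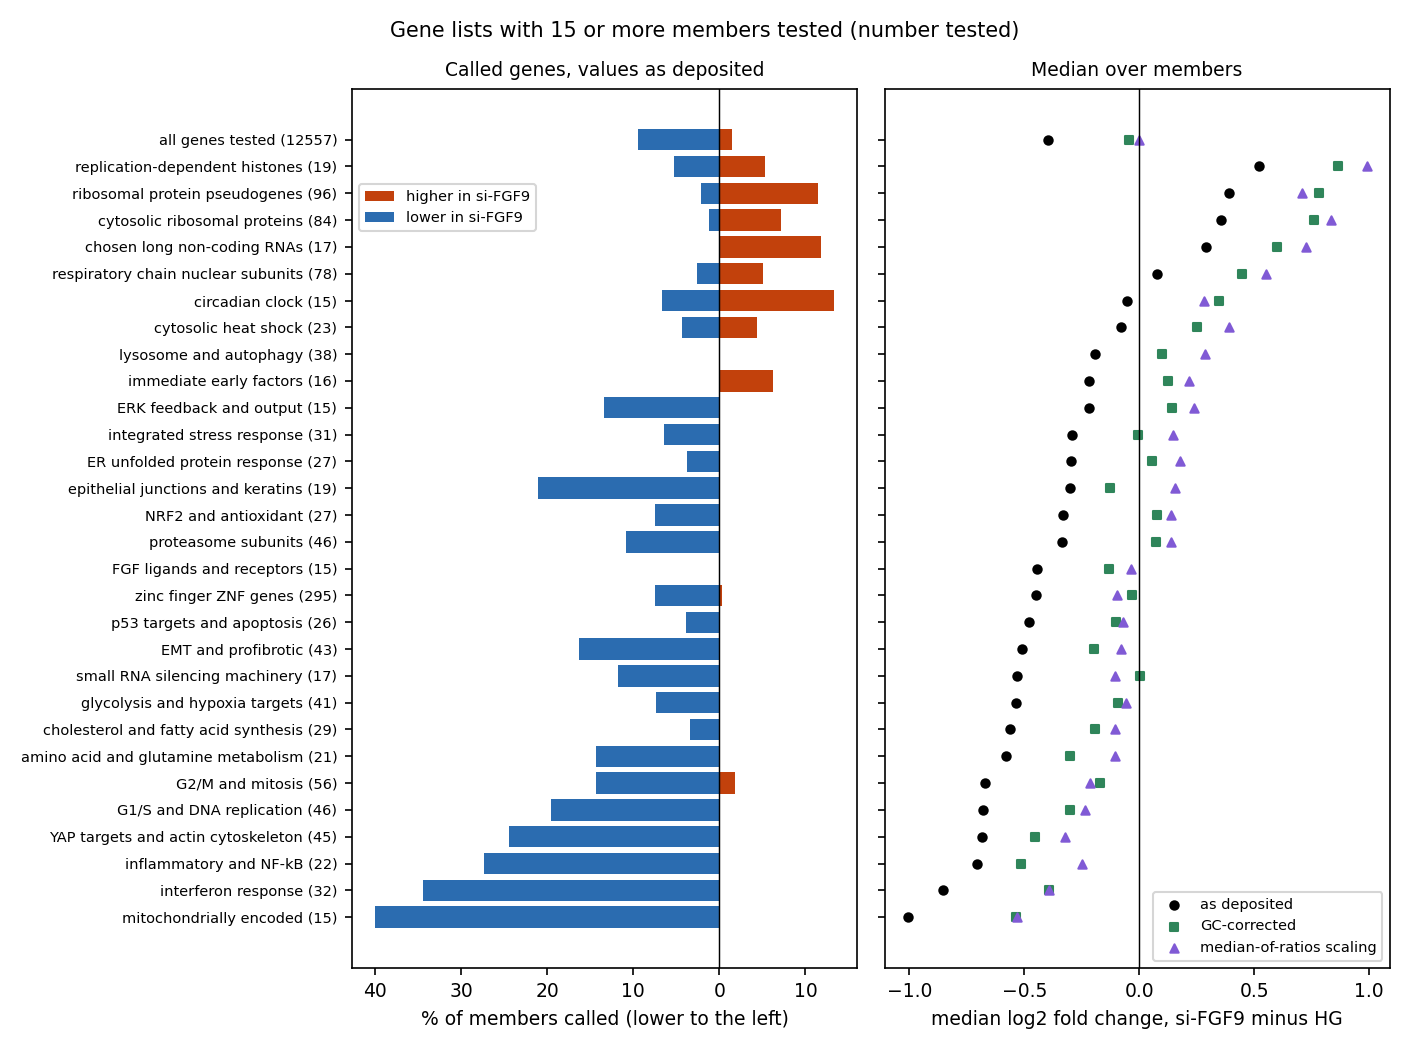
Share of tested members that were called in gene lists with 15 or more members, lower in si-FGF9 to the left and higher to the right (left panel), and the median log2 fold change of the members on 3 scales (right panel). The all-gene median moved from -0.40 to -0.05 and 0.00 with GC correction and median-of-ratios scaling, while the inflammatory, interferon, YAP and mitochondrially encoded lists stayed below 0 and the ribosomal protein lists above it on each.

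Genes of the translation machinery were the main group on the other side. Of 84 genes of cytosolic ribosomal proteins tested, 6 were higher (7.14%, against 1.46% of all genes) and 1 lower (1.19%, against 9.39%). The median was 0.35, against -0.40 over all genes. In 44 of the 84, all si-FGF9 libraries were above all HG libraries, against 7.80% of all genes tested, and in 4 they were below, against 35.5%. After the GC correction 18 were higher and 0 lower, after median-of-ratios scaling 26 and 0, and after quantile normalization 4 and 0. The shares of all genes called higher on these 3 scales were 3.60%, 5.45% and 3.75%. With quantile normalization the excess of higher calls was thus small. The list median on that scale was 0.17, against -0.04 over all genes. RPL5, a component of the 5S particle that binds MDM2, had 1208, 1278 and 1556 TPM in HG and 4217, 4146 and 2962 TPM in si-FGF9. This 2.80-fold increase (log2 fold change 1.48, standard error 0.18, adjusted p = 0.011, limma) exceeded that of RPL36, which was 2.39-fold higher, and RPS28, which was 2.23-fold higher. RPL3, in contrast, had 1658, 1519 and 1368 TPM in HG and 1536, 1517 and 1386 TPM in si-FGF9, which overlap. The called member with lower values, RPL7L1, is a paralogue and not a standard ribosomal subunit. The snoRNA host genes SNHG5 and ZFAS1, long non-coding RNAs that carry the same kind of 5′ pyrimidine tract as ribosomal protein messages, were 2.28-fold and 2.31-fold higher.

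Nuclear genes of the respiratory chain did not follow the mitochondrial ones. Of 78 tested, 4 were higher (5.13%, against 1.46% of all genes), 2 lower (2.56%, against 9.39%), and the median was 0.08. ATP5F1B, the catalytic β subunit of ATP synthase, had 478, 459 and 449 TPM in HG and 1042, 1018 and 942 TPM in si-FGF9 (log2 fold change 1.11, standard error 0.12, adjusted p = 0.0086, limma). ATP5F1D, ATP5F1E and UQCR11, subunits of ATP synthase and of complex III, were also higher. NDUFS1 and SDHD, subunits of complexes I and II, were lower on the deposited scale only.

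Single genes outside these groups rose on all scales. UPF2, a core factor of nonsense-mediated decay, had 2.44, 1.34 and 5.14 TPM in HG and 10.5, 10.3 and 11.8 TPM in si-FGF9, a 3.66-fold increase. SEC62, a translocation protein and receptor of ER-phagy, had 27.4, 32.9 and 52.7 TPM in HG and 135, 112 and 111 TPM in si-FGF9. Both were higher in every si-FGF9 library, and both were called in all 6 fits that left out one library. CRYAB, the small heat shock protein αB-crystallin, had 125, 136 and 303 TPM in HG and 709.9, 634 and 377 TPM in si-FGF9, a 3.05-fold increase. Among the genes that fell on all scales beyond the groups above, LACTB2, a mitochondrial endoribonuclease, was 6.82-fold lower, with 33.7, 19.2 and 26.3 TPM against 4.21, 4.27 and 3.13 TPM. F3, tissue factor, was 7.44-fold lower on the deposited scale, but its HG values ran from 6.63 to 41.1 TPM and it was called in 2 of the 6 leave-one-out fits. AIMP2 was called in 1 of 6, with 4.48 TPM in HG replicate 3 against 25.7 and 23.0 TPM in the others.

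A pair of clock output genes stood out. NR1D1, which encodes the repressor REV-ERBα, had 11.3, 12.3 and 48.2 TPM in HG and 103, 100.5 and 79.4 TPM in si-FGF9 (log2 fold change 2.24, standard error 0.49, adjusted p = 0.025, limma). DBP, a transcription factor driven by CLOCK and BMAL1, had 32.4, 37.9 and 76.0 TPM in HG and 117, 130.0 and 244 TPM in si-FGF9. Neither gene overlapped between the groups, and HG replicate 3 was the highest HG library for both. None of the other 13 clock genes was called higher on the deposited scale with limma, so that 13.3% of the list was higher, against 1.46% of all genes. Without HG replicate 3 the list held 4 higher genes, against 353 of all 12557 tested. CRY1, a repressor of CLOCK and BMAL1, was 3.18-fold lower on the deposited scale, BMAL1 had a log2 fold change of -0.35 and PER1 one of 0.77 (adjusted p = 0.24, limma). The time of harvest is not given in the labels.

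Stress genes did not separate the groups. Of 23 cytosolic heat shock genes, 1 was higher (CRYAB) and 1 lower (HSPB8), which is 4.35% each, against 1.46% and 9.39% of all genes. HSPA1A, the inducible Hsp70, had 80.1, 90.6 and 494 TPM in HG and 404, 357 and 95.2 TPM in si-FGF9, and DNAJB1, its co-chaperone, had 57.7, 57.8 and 354 TPM in HG and 425, 376 and 79.2 TPM in si-FGF9. DDIT3, the transcription factor CHOP of the ER stress response, had 129, 110.2 and 1493 TPM in HG and 1134, 1182 and 578 TPM in si-FGF9. HG replicate 3 and si-FGF9 replicates 1 and 2 were thus high and the other 3 libraries lower, the same division as on the second principal component. HSPA5, the ER chaperone BiP, had 488, 366 and 3088 TPM in HG and 1208, 1303 and 606 TPM in si-FGF9 (log2 fold change 0.26, standard error 0.74, adjusted p = 0.80, limma). The labels give no batch or date, and no fit was made by this division of the libraries.

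**Figure D4:**
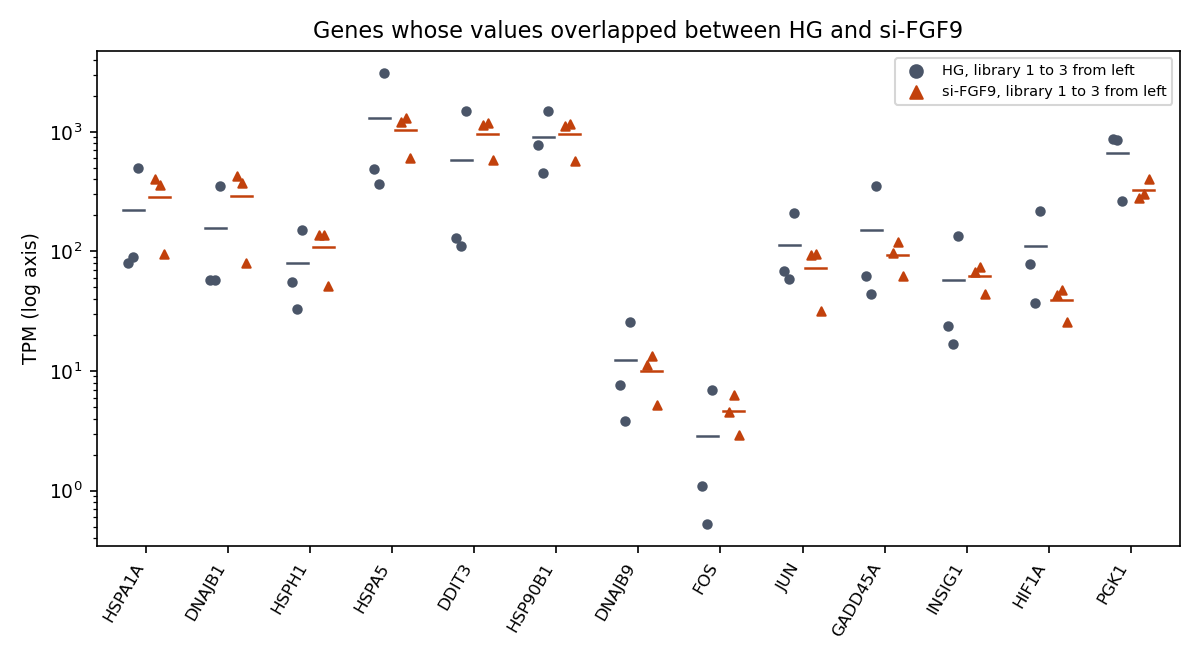
TPM on a log axis of 13 genes whose values overlapped between HG (circles) and si-FGF9 (triangles), with libraries 1 to 3 from left to right and the mean as a bar. HSPA1A, DNAJB1, HSPA5 and DDIT3 are high in HG replicate 3 and lowest of their group in si-FGF9 replicate 3, and PGK1 is low in HG replicate 3.

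The largest fold changes of all belonged to pseudogenes and to genes that lie opposite an abundant gene. RPL3P4, a processed pseudogene of RPL3, was listed at 0, 0 and 1.61 TPM in HG and at 1217, 1137 and 852 TPM in si-FGF9, while RPL3 itself overlapped between the groups. RPL22P1, a pseudogene of RPL22, had 0, 7.76 and 1.01 TPM in HG and 218, 314 and 197 TPM in si-FGF9, with RPL22 at a log2 fold change of 0.22. Reads of such copies can be assigned to either, so that these values are uncertain. IER3-AS1, which overlaps IER3 on the other strand over 359 exonic bases, had 1.19, 6.55 and 5.54 TPM in HG and 257, 212 and 164 TPM in si-FGF9. CAPN12, a calpain, lies opposite ACTN4, α-actinin 4, with 868 exonic bases in common. It had 0.41, 18.1 and 0.36 TPM in HG and 111, 112 and 129 TPM in si-FGF9, while ACTN4 had 155, 136 and 156 TPM in HG and 54.3, 49.5 and 65.3 TPM in si-FGF9.

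Such overlaps were counted after these values were seen. A gene on the other strand shared at least 50 exonic bases with 36.6% of the 183 genes higher in si-FGF9, 38.1% of the lower genes and 37.0% of all genes tested. In 26 of the 183 the partner was at least 5 times as abundant in HG, a count given as a description only, since a gene called higher tends to be low in HG. The 26 include MRNIP opposite SQSTM1, TUBA1B-AS1 opposite TUBA1B and IER5L-AS1 opposite IER5L. The sources used here do not state whether reads were counted by strand, so that reads of a gene and of its partner may not be separable. Nor do they state whether both groups were mapped and counted with the same settings, and the part of either in the values of CAPN12, IER3-AS1, RPL3P4 and the like was not tested. Protein-coding genes made up 55.2% of the higher genes and 92.8% of the lower ones, against 86.9% of all tested. SNORA18, a small nucleolar RNA inside TAF1D, had 17.0, 13.3 and 12.8 TPM in HG and was listed at 0 in all 3 si-FGF9 libraries. A copy of the small nucleolar RNA U3 was listed at 0 in HG and at 13.5, 30.9 and 20.6 TPM in si-FGF9.

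Fold changes followed the base composition and the length of transcripts. Genes were divided into 10 equal bins of GC content. In the bin poorest in GC (median 37.1%), the median log2 fold change was -0.60 and 11.3% were lower, and in the richest (median 64.1%) it was -0.04 and 1.96% were lower. Spearman's rho with log2 fold change, across 12262 genes that are no replicates of each other, was 0.29 for GC content and -0.23 for length. The bin with the shortest transcripts (median 685 bases) had a median of 0.16, and that with a median of 4248 bases one of -0.54. The GC correction brought the bins of GC content to between -0.07 and -0.02 but left the shortest transcripts at 0.48. The part of transcript length in the values of single lists was not tested.

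**Figure D5:**
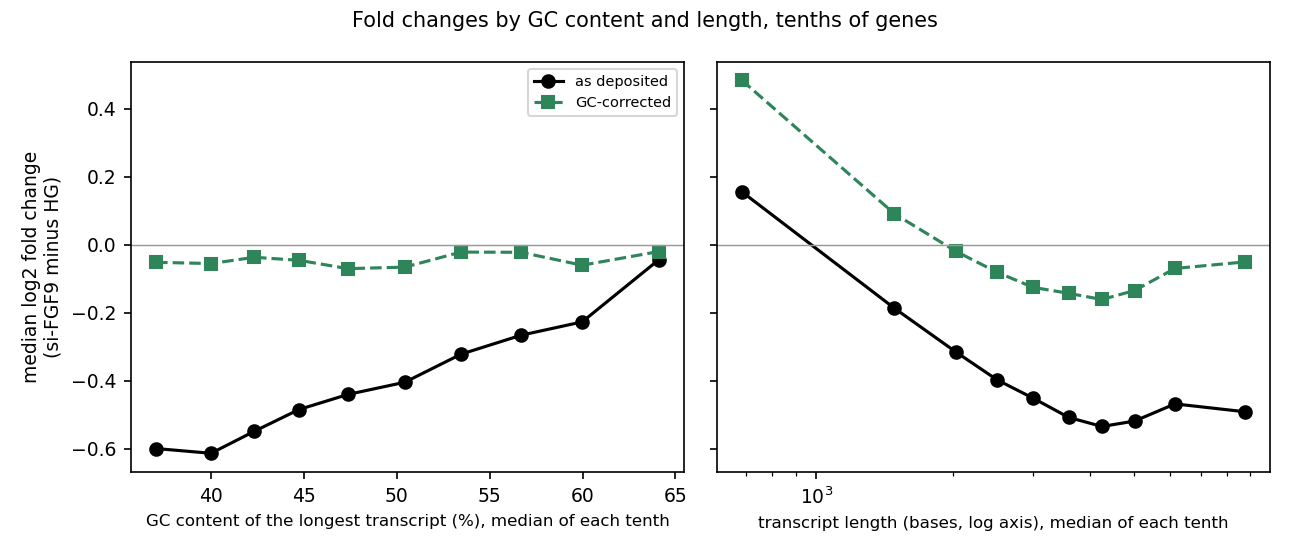
Median log2 fold change (si-FGF9 minus HG) in 10 bins of the 12262 genes with an annotated transcript, by GC content (left) and by length on a log axis (right), as deposited (circles) and after the GC correction (squares). The deposited medians run from -0.60 at 37.1% GC to -0.04 at 64.1%, and the shortest transcripts are the only bin of length above 0 as deposited.

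Matches to the seed of the siRNA were counted as a description of what the duplex could bind. Of genes with an annotated 3′ UTR, 3345 held at least 1 match to the antisense seed, the letters TAAATAA, and 7524 held none. Their medians were -0.54 and -0.39, and 12.4% against 8.87% were lower in si-FGF9. The UTRs with a match were longer (median 2657 against 1224 bases) and poorer in GC (38.5% against 48.4%). Among genes in the lowest of 3 bins of UTR GC content, the medians were -0.62 with a match and -0.62 without, and 12.9% against 14.9% were lower. In the middle bin they were -0.48 and -0.45, with 12.8% against 11.1% lower. In the highest bin they were -0.36 and -0.20, with 8.24% against 3.87% lower, and after the GC correction -0.16 and -0.03. After the GC correction the overall medians were -0.09 with a match and -0.07 without. Matches to bases 2 to 8 of the printed (sense) strand had a median of -0.42 in the highest bin (110 genes), against -0.21 without. Lower genes made up 10% against 4.13%, and the GC-corrected medians were -0.16 and -0.04. Split by UTR length, the medians of that bin with and without an antisense match were -0.20 and -0.03 (short), -0.37 and -0.32 (middle) and -0.46 and -0.36 (long).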

How the data were processed

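RNA of HK2 cells was sequenced on a HiSeq3000, and the authors deposited TPM for 62703 Ensembl gene identifiers, with each library scaled to about 1000000. The authors' aligner, counter, annotation and strand setting for these human genes are not given in the sources used here. The submitters' processing notes list Bowtie 0.12.2 and mm8, a mouse build, with no role. TPM hold no depth, so that counting error is unknown. Symbols were matched for 42300 identifiers, and types, GC content and length (longest transcript) were taken from GENCODE 29 on GRCh38.

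Genes with TPM of at least 1 in 3 of the 6 libraries were fitted with limma 3.58.1 (R 4.3.3) on log2(TPM + 1) with a variance trend and group as the only term. The thresholds are those of the study, with Benjamini-Hochberg adjusted p over all genes. The fit was tested on simulated data. The GC correction subtracted a natural spline with 5 degrees of freedom from each library. Members and lists were chosen with earlier results of these data known.

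Named genes were the 10 protein-coding genes with the largest change in each direction among called genes with adjusted p under 0.05, a mean TPM of at least 10 in the higher group and no overlap, the 10 by GC-corrected change among those called on all scales, 5 non-coding ones, key genes of the lists and the 3 called members of each list that changed most. Columns of the other groups entered only the fit on 12 libraries. Partner and parent genes, IER5L-AS1, TUBA1B-AS1, CXCL2, CXCL3, ATP5F1E, BMAL1, MT-ATP6, MT-CO1, MT-CYB, MT-ND2 and MT-RNR1, and the searches of promoters and of opposite strands were added after values were seen. Some genes are not reported here.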

Additional observations from a re-analysis of the deposited data

How the results depend on the processing

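The number of called genes, 1362 as reported, was 781 with quantile normalization, 740 with the GC correction, 677 with GC and length and 671 with GC and the replicate block. The higher genes, 183, became 684 with median-of-ratios scaling, 471, 441, 396 and 407, in the same order. The lower genes, 1179, became 279, 310, 299, 281 and 264. With one library left out, the called genes ranged from 711 (without HG replicate 1) to 2278 (without HG replicate 2), the higher from 123 to 353 (without HG replicate 3) and the lower from 588 to 2066. Lower genes with the replicate block numbered 779, with a pseudocount of 0.1 they numbered 1596 and with mitochondrial genes left out 1726. Libraries with the same number did not deviate together (correlations of -0.12, -0.42 and -0.49). No pairing by number was seen, but a weaker shared effect could stay hidden beside the spread within the groups. The block left 934 called genes, 18 of them with an adjusted p under 0.05. That number was 17, 52 and 127 without si-FGF9 replicates 1, 2 and 3. None of the 113 called genes named under the rule changed sign in any of the 20 settings run, but they were picked for large changes in these same data. Sign changes of named genes without a call numbered 32 with median-of-ratios scaling, 29 with the GC correction and 16 without HG replicate 2. The causes of these changes were not tested. Depth is unknown from TPM, which gives no measure of the counting error of low values.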

Other observations

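Several other lists held values that belong to none of the groups above. Of 46 proteasome subunits and regulators, 5 were lower (10.9%, against 9.39% of all genes) and 0 higher on the deposited scale, and 0 were called after the GC correction or either rescaling. Among junction and keratin genes, CLDN1, a tight junction protein, was lower with 39.5, 24.5 and 63.3 TPM in HG and 13.9, 13.4 and 13.8 TPM in si-FGF9. Of 38 lysosome and autophagy genes, 0 were called on the deposited scale (limma), and the protease gene CTSD had 753, 822 and 759 TPM in HG and 1208, 1105 and 1253 TPM in si-FGF9 (log2 fold change 0.61, adjusted p = 0.022, limma). JUND, an AP-1 factor, was the 1 called gene of 16 immediate early factors (6.25%, against 10.8% of all genes), 2.22-fold higher in si-FGF9. FOS had 1.10, 0.53 and 6.89 TPM in HG and 4.58, 6.35 and 2.92 TPM in si-FGF9. Of 295 zinc finger ZNF genes, 22 were lower (7.46%, against 9.39% of all genes) and 1, ZNF516, was higher. Their median of -0.45 was close to that of all genes. TGFB2-OT1, a transcript annotated within the 3′ end of TGFB2, was 4.82-fold lower and remained called on all scales, while TGFB2 itself did not pass.

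Of the 857 genes that met the TPM of 1 in exactly 3 libraries, 155 were called, against 10.8% of all genes tested. Among the 361 at this level in the 3 HG libraries only, 130 were called, and 25 among the 50 in the 3 si-FGF9 libraries only. Such genes entered the test through the group where they were high. Their direction was therefore set by the filter, and the counts are a description only. The 934 genes at this level in exactly 2 libraries were not tested.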
